A study of Homo sapiens with 20 samples.

Results

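HIF1A binding was examined at 37 genes of the 2-oxoglutarate-dependent oxygenase superfamily, out of 20098 protein-coding genes on the autosomes and chromosome X: 17 histone demethylases of the Jumonji C (JmjC) fold, 7 other JmjC proteins, the 3 TET DNA dioxygenases, 8 ALKBH proteins with the related FTO, and ASPH. A peak was assigned to a gene when its centre lay between 10 kb upstream of the gene's 5′ end and 10 kb past its 3′ end in the GENCODE release 44 annotation of build GRCh37. The members were listed by enzyme family, with earlier results of these data known.

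The data were ChIP-seq of HIF1A, the oxygen-regulated subunit of hypoxia-inducible factor, in which chromatin pulled down by an antibody to the protein was sequenced. The 4 established lines were HCT116 and RKO, from colorectal carcinomas, and A549 and H460, from non-small cell lung carcinomas, none of them genetically modified for these libraries. Each line was kept in normoxia or in hypoxia (1% O2 for 24 h), as 2 replicates of each, and 1 input library was made for every line, which gave 20 samples. The replicates had been merged before peaks were called, so there were 8 peak lists of 41.2 to 81.5 M tags each and no value carries a replicate error.

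The proteins encoded by these genes bind iron and 2-oxoglutarate and use molecular oxygen as a substrate. JmjC demethylases oxidise methyl groups on histone lysines, TET proteins oxidise 5-methylcytosine in DNA, and ALKBH proteins remove methyl groups from RNA, DNA or protein. The same chemistry in the EGLN prolyl hydroxylases marks HIF1A itself for destruction in oxygenated cells. HIF1A with its partner ARNT binds the hypoxia response element, whose core is ACGTG or GCGTG.

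Sequences are shown for 10 of the 13 members bound in 3 or more hypoxia lists, to place the core motif at the peak. Each run covers 29 bases of GRCh37, read on the strand on which the core reads forward, with the core nearest to the centre of the gene's strongest peak in capitals.
KDM3A (chr2:86667951-86667979, minus strand): gcagggaagagaACGTGcggtttcaggcg
KDM4B (chr19:4968590-4968618, minus strand): caccggccgggaACGTGcaggctggaggt
KDM4C (chr9:6757667-6757695, plus strand): aggacgtgtggcGCGTGgactacatcagg
KDM5B (chr1:202780631-202780659, minus strand): tacacgtgcgctACGTGctgcgccggccg
KDM6B (chr17:7739040-7739068, minus strand): gggtgggcgcgaGCGTGtgggagtgcacg
KDM7A (chr7:139876947-139876975, minus strand): ccggcgccagagACGTGcgcgagacgcac
JMJD6 (chr17:74722071-74722099, plus strand): ggcagggcgcgtGCGTGaggccacgtcgt
TET1 (chr10:70360330-70360358, minus strand): ccagcactgtagACGTGctgggcatgcct
TET2 (chr4:106067913-106067941, minus strand): ccgagggggcggACGTGacttgcatgcga
ALKBH5 (chr17:18086350-18086378, minus strand): cggtgacggcgaGCGTGggggcgcgctgg
These 10 cores lay between 4 bp and 10 bp from the peak centre. The strongest peaks of KDM2A and KDM5A, both in A549, held no ACGTG or GCGTG within the 200 bp around the centre, so no sequence is given for them, and that of ASPH is not shown here.

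In hypoxia, 26 of the 37 oxygenase genes had a HIF1A peak in at least 1 line, against 51.9% of all protein-coding genes. In HCT116, 16 members had a peak (background 20.0% of genes). The number was 20 for RKO (28.4%), 14 for A549 (21.6%) and 14 for H460 (18.4%). The share of members was above that of all genes in each of the 4 hypoxia lists. When every list was held to a 14-fold enrichment over its input, HCT116 kept 12 members (9.21% of all genes) and RKO 10 (11.6%). In normoxia the counts were 1 for HCT116 (1.30%), 4 for RKO (6.96%), 2 for A549 (2.77%) and 3 for H460 (3.82%). Member genes had a median length of 55.4 kb, from 2.46 kb for ALKBH7 to 457 kb for FTO, against 27.3 kb for all genes, and a longer gene offers a longer window. Counts at the 5′ end and per length of window, which do not grow with gene length, are therefore given next.

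Within 2500 bp of the 5′ end, hypoxia peaks were called at 13 members for HCT116 (9.18% of all genes), 12 for RKO (8.75%), 7 for A549 (7.04%) and 10 for H460 (9.18%). The normoxia counts were 0 for HCT116 (0.134%), 0 for RKO (1.05%), 2 for A549 (0.612%) and 1 for H460 (0.338%). Across the 4 lists 17 members had such a peak in at least 1 line (22.2% of all genes), and KDM3A, KDM4B, TET2 and ALKBH5 had one in every line (1.13%). Per Mb of window, member genes held 4.49 (HCT116), 6.51 (RKO), 4.72 (A549) and 4.49 (H460) hypoxia peaks. The windows of all protein-coding genes held 2.11, 3.89, 2.58 and 2.02 per Mb in the same order. Both measures placed the members above all genes in every hypoxia list.

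**Figure D1:**
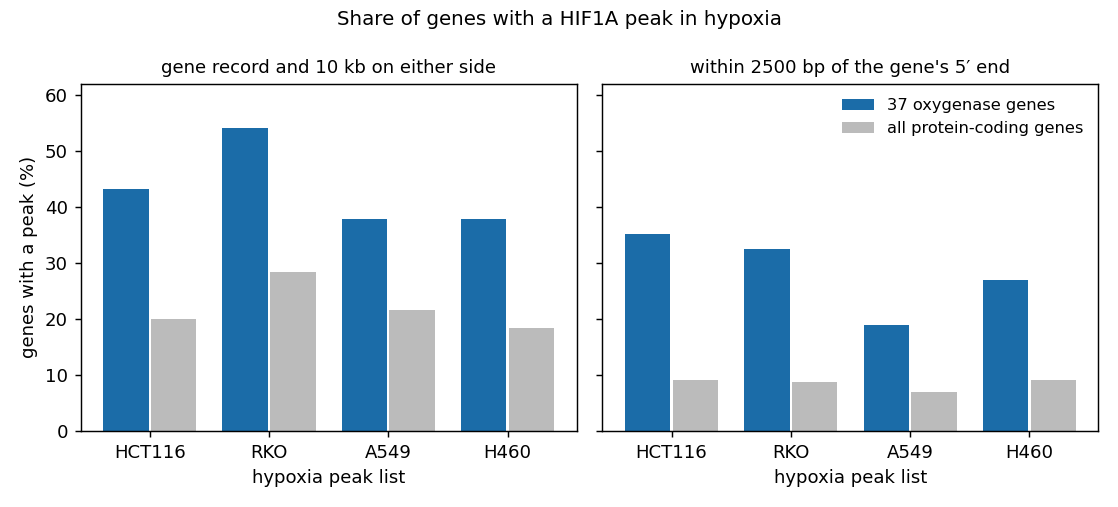
Percent of genes with at least 1 HIF1A peak (vertical axis) in each of the 4 hypoxia lists (horizontal axis), for the 37 oxygenase genes (blue bars) and all protein-coding genes (grey bars). The left panel uses the gene with 10 kb on either side and the right panel the 2500 bp around the 5′ end; the blue bar is the taller in all 8 pairs.

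The signal of a peak is its normalized tag count, the number of tags in the peak per 10 M tags of the library. The member windows held 90 hypoxia peaks: 20 (HCT116), 29 (RKO), 21 (A549) and 20 (H460). They ran from 2.45 to 73.0 normalized tags. The member median was 6.63 in the HCT116 list, where that of all peaks was 3.07. It was 3.74 beside 3.29 for RKO, 5.58 beside 3.87 for A549 and 15.4 beside 6.47 for H460. Of the 90 peaks, 32 were in the top 10% of their list, 7 (HCT116), 12 (RKO), 6 (A549) and 7 (H460). Ranked among all peaks of the list, the median member peak stood at percentile 84.1 (HCT116), 79.9 (RKO), 69.1 (A549) and 81.1 (H460). The members thus stood in the upper part of each list, with some weak peaks among them. The strongest were at KDM4B in HCT116, KDM3A in RKO and H460, and ALKBH5 in A549.

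**Figure D2:**
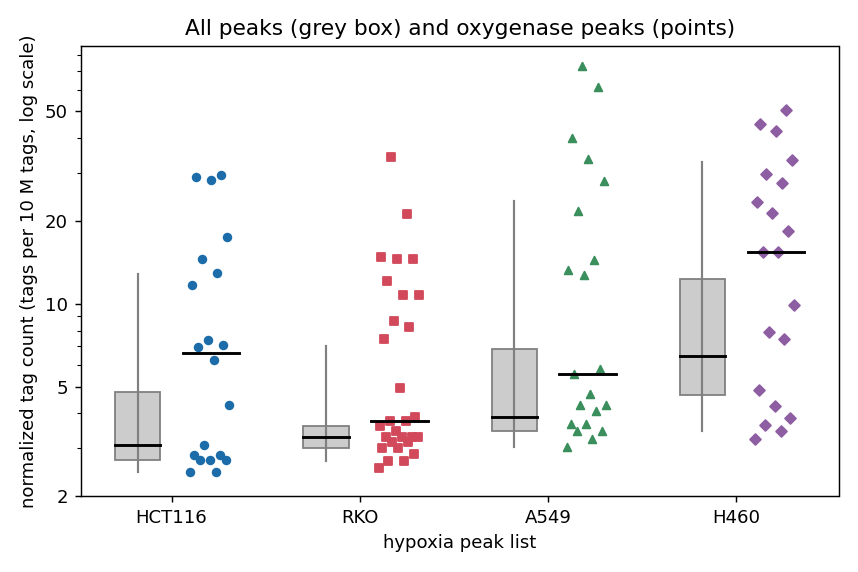
Normalized tag count (tags per 10 M tags, log axis) of the peaks of each hypoxia list: the grey box spans the 25th to the 75th percentile of all peaks, the grey line the 5th to the 95th, and the points are the 20, 29, 21 and 20 member peaks. Black bars mark medians, and the median of the member points lies above that of all peaks in each line.

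When hypoxia peaks of different lines were joined wherever they overlapped by at least 1 bp, the member windows held 58 regions. Of these, 41 were called in 1 line, 7 in 2, 5 in 3 and 5 in all 4. Of all 19625 regions joined in this way, 90.3% were called in 1 line, 6.28% in 2, 2.28% in 3 and 1.19% in all 4. By gene, 15 members had a region called in 2 or more lines (11.9% of all genes), 9 in 3 or more (4.65%) and 5 in all 4 (1.67%). Counting any peak in the window, wherever it lay, 8 members were called in all 4 lists (3.27% of all genes). The 5 with the same region in every line were KDM3A, KDM4B, KDM4C, TET2 and ALKBH5. Requiring a fold over input of 14 in every list, the threshold of H460, left 3 of them, KDM3A, KDM4B and TET2. For KDM2A, KDM5B and ASPH, peaks at different places in different lines made up the 4 calls.

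**Figure D3:**
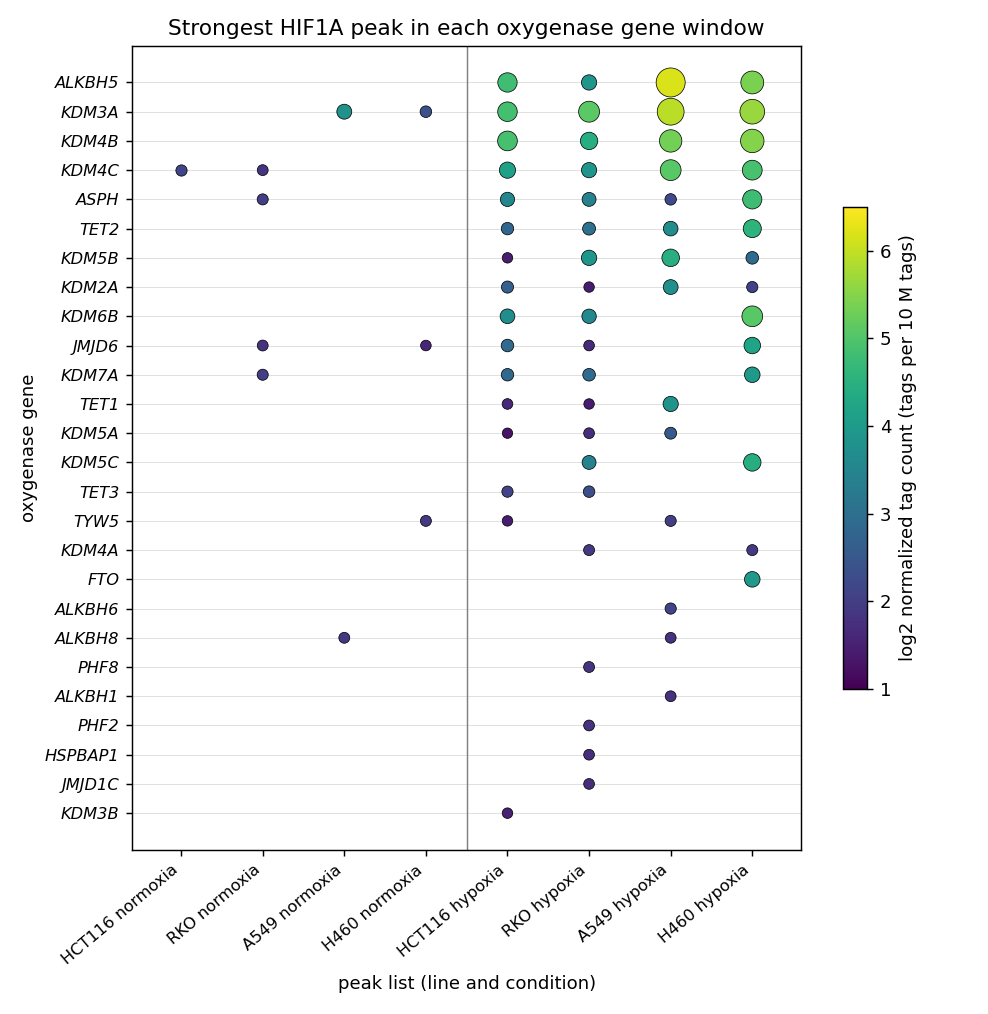
Strongest HIF1A peak of each of the 26 member genes with a peak (rows) in each of the 8 lists (columns, normoxia on the left and hypoxia on the right); colour gives the log2 normalized tag count and dot area rises with the normalized tag count. A blank cell is a gene with no called peak, and 7 of the 26 genes have a dot on the normoxia side.

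Among the histone demethylases, 14 of 17 were bound under hypoxia in some line (51.9% of all genes). The counts were 9 for HCT116 (20.0%), 13 for RKO (28.4%), 6 for A549 (21.6%) and 9 for H460 (18.4%). These shares of all genes were not matched for gene length. KDM3A, which removes methyl groups from lysine 9 of histone H3 (H3K9) and is a known hypoxia-induced gene, was bound in its 5′ UTR. The region centred 218 bp past the 5′ end had normalized tag counts of 28.8 (HCT116), 34.1 (RKO), 61.2 (A549) and 50.5 (H460). Its rank was 38 of 3996 peaks for HCT116, 14 of 9171 for RKO, 31 of 5408 for A549 and 75 of 3877 for H460, so it stood among the strongest peaks of every line.

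The KDM4 enzymes remove trimethylation from H3K9 and H3K36. KDM4B was bound at -495 bp (negative distances lie upstream of the 5′ end), at 29.4 normalized tags (HCT116), 21.2 (RKO), 40.2 (A549) and 44.9 (H460). A weaker intronic region of KDM4B, at 79307 bp, had 2.45 in HCT116 and 3.65 in A549 and was not called in the other lines. KDM4C differed in that no peak lay within 2500 bp of the gene's own 5′ end. Its region at 36820 bp was called in every line, at 14.5 (HCT116), 8.67 (RKO), 33.7 (A549) and 29.7 (H460). That region lay in a UTR, 20 to 58 bp from the start of another annotated KDM4C transcript. A further KDM4C region at -4502 bp had 17.5 in HCT116, 14.5 in RKO and 27.9 in A549 and was not called in H460, and the nearest annotated start, 190 to 208 bp away, was that of the lncRNA ENSG00000225489. KDM4A was called in RKO (3.74 normalized tags) and H460 (3.84), at 56841 and 57447 bp, past the 3′ end of the gene, where KDM4A-AS1 had the nearest start. The RKO peak had rank 1669 of 9171 and the H460 peak rank 3229 of 3877, so only the latter was near the weak end of its list.

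The KDM5 enzymes remove methyl groups from H3K4, the mark of active promoters. KDM5B carried a region at -3012 bp with 14.8 normalized tags in RKO, 21.7 in A549 and 7.48 in H460, which was nearest to the start of the lncRNA PCAT6, 647 to 662 bp away. In HCT116 the only KDM5B peak was intronic, at 41021 bp, with 2.70. KDM5C was bound at its 5′ end in RKO (10.8) and H460 (21.4) and had no peak in HCT116 or A549. KDM5A was called at its 5′ end in HCT116 (2.45) and A549 (5.80), and in RKO only at 75780 bp (3.29). Among the 3 KDM5 genes the level and the set of lines thus differed from gene to gene.

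KDM6B, which removes H3K27 methylation and takes part in inflammatory and developmental gene induction, was bound in an intron, at 1511 bp. The normalized tag count was 12.9 in HCT116, 12.1 in RKO and 33.4 in H460, with no peak called in A549. The lncRNA ENSG00000288929 started closer to this region, 603 to 618 bp away, than KDM6B did. KDM7A, a demethylase of H3K9 and H3K27, had a region at -185 bp, with 7.11 in HCT116, 7.47 in RKO and 15.4 in H460, and none in A549. The divergent transcript KDM7A-DT started 16 to 30 bp from its centre, so the centre lay closer to that start than to the start of KDM7A. KDM6B, KDM7A, JMJD6 and ASPH shared the pattern of a region called in HCT116 and H460 but not in A549.

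KDM2A, a CpG-island-binding demethylase of H3K36, was called at 64 bp in HCT116 (6.26) and A549 (13.3). In RKO its peak was a separate one at -159 bp (2.69). In H460 the only KDM2A peak (4.25) lay 8659 bp past the end of the gene and 268 bp from the start of GRK2. This was the member peak closest to the edge of a window, and the nearest hypoxia peak outside one was 10041 bp from KDM6B in RKO, at 3.59. Of the genes called in 1 hypoxia list, the strongest peak was 2.82 for KDM3B in HCT116, and in RKO 3.29 for JMJD1C, 3.44 for PHF2 and 3.59 for PHF8. KDM2B, KDM4D and KDM6A had no peak in any of the 8 lists.

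Among the other JmjC proteins, JMJD6, a lysyl hydroxylase that acts on splicing factors, was bound at 799 bp with 7.36 normalized tags in HCT116 and 18.4 in H460. In RKO its peak (3.14) was elsewhere, at -1275 bp and 1244 bp from the start of METTL23, and A549 had none. TYW5, which hydroxylates wybutosine in a transfer RNA, had a peak of 2.70 at 106 bp in HCT116 and of 4.08 at 20181 bp in A549. HSPBAP1 had 3.29 in RKO, 269 bp from the start of SLC49A4. KDM8, RIOX1, RIOX2 and JMJD4 had no peak in any list.

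All 3 TET genes had a hypoxia peak in some line (51.9% of all genes), but at different places and levels. TET2 was bound at 871 bp, within 4 to 56 bp of the start of another TET2 transcript, at 6.99 (HCT116), 8.22 (RKO), 12.7 (A549) and 23.5 (H460). TET1 was bound in an intron at 40258 bp, at 3.07 in HCT116 and 14.4 in A549, and its RKO peak (2.69) lay elsewhere, at 74004 bp. TET3 was bound at its 5′ end in HCT116 (4.29) and RKO (4.93) and had no peak in A549 or H460. TET2 was thus the only TET gene with the same region in every line.

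Of the ALKBH proteins and FTO, 5 of 9 had a hypoxia peak in some line, a share near that of all genes (51.9%). ALKBH5, the demethylase of N6-methyladenosine in messenger RNA, was bound on its 5′ end, at -5 bp. Its normalized tag count was 28.1 (HCT116), 14.6 (RKO), 73.0 (A549) and 42.3 (H460), a 5-fold range. The A549 peak had rank 22 of 5408 and was the highest member peak of any list. FTO, the other N6-methyladenosine demethylase, had peaks in H460 alone, all 4 of them intronic. The strongest 2 of these lay next to each other, at 66550 bp (7.89) and 67147 bp (15.4), and none of the 4 held the core motif. ALKBH1 (3.44), ALKBH6 (4.29, 481 bp from the start of SYNE4) and ALKBH8 (3.44) had a hypoxia peak in A549 alone. ALKBH2, ALKBH3, ALKBH4 and ALKBH7 had no peak in any list.

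ASPH, which hydroxylates aspartate and asparagine in EGF-like domains, was bound at -206 bp, with 11.7 in HCT116, 10.8 in RKO and 27.5 in H460. In A549 its only peak, at 4.72, lay 215893 bp from the 5′ end and past the 3′ end of the gene. The A549 list thus lacked the promoter region of ASPH that the other lines shared.

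**Figure D4:**
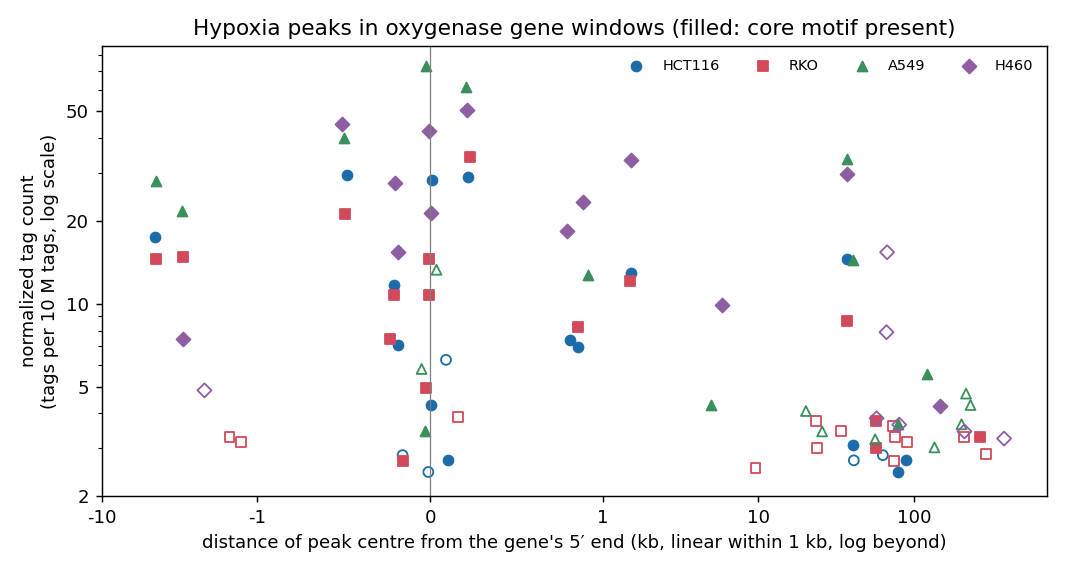
Normalized tag count (tags per 10 M tags, log axis) of the 90 hypoxia peaks in member windows against the distance of the peak centre from the gene's 5′ end (kb, linear within 1 kb and log beyond), with 1 symbol and colour per line. Filled symbols hold the core motif within the 200 bp at the centre and open symbols do not; the 43 peaks within 2500 bp of the 5′ end had a median of 12.1 normalized tags and the 47 farther ones 3.65.

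Position and strength went together among the member peaks, pooled over 4 lines whose tag scales differed. A region called in several lines counted once for each, as at KDM3A, KDM4B, TET2 and ALKBH5. The 43 hypoxia peaks within 2500 bp of the member's 5′ end, at 17 genes, had a median of 12.1 normalized tags, and 23 were in the top 10% of their list. The 47 peaks farther away had a median of 3.65, and 9 were in the top 10%. By annotation at the peak centre, 31 of the 90 were intronic, 29 upstream of the gene, 21 in a UTR, 7 past the gene's end and 2 in a coding exon. Most of the distant peaks were therefore outside the top 10% of their list. KDM4C at 36820 and -4502 bp, KDM5B at -3012 bp, TET1 in A549 and FTO in H460 were among the stronger ones.

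The core motif (ACGTG or GCGTG, either strand, in the 200 bp at the centre) was present in 15 of 20 member peaks for HCT116, 16 of 29 for RKO, 12 of 21 for A549 and 13 of 20 for H460. Over all peaks of those lists the shares were 65.1%, 30.5%, 52.4% and 76.9%. The Wilson 95% intervals of the member shares, which cover counting error only, were 53.1 to 88.8% for HCT116, 37.5 to 71.6% for RKO, 36.5 to 75.5% for A549 and 43.3 to 81.9% for H460. The share of all peaks lay outside the interval for RKO, where the member share was higher, and inside it for the other lines. A motif of the same GC content with 1 base exchanged (ACGAG or GCGAG) was present in 13, 15, 9 and 12 member peaks, against 43.4%, 19.7%, 27.1% and 41.2% of all peaks. Within 2500 bp of the 5′ end 34 of 43 member peaks held the core motif and 30 the exchanged motif. Farther away these were 22 and 19 of 47. All 35 peaks in regions called in 3 or 4 lines held the core motif, and 31 the exchanged one. Of the 41 peaks in regions called in 1 line, 11 held the core motif and 12 the exchanged one. Among the member peaks, both motifs were thus more frequent near the 5′ end and in shared regions. These splits are not given for all peaks, so they were not read as particular to the members. The 35 peaks came from 5 regions called in 3 lines and 5 called in all 4, so each region was counted 3 or 4 times. A match is a description of the letters and was not tested as a site.

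RefSeq promoter sequence of GRCh38.p14, from 250 bases before to 50 after the gene start, was at hand for 33 members and 15289 protein-coding genes. The core motif was found in 23 of the 33 promoters (69.7%, against 56.2% of all). Of these 23, 13 were bound within 2500 bp of the 5′ end under hypoxia in some line (56.5%, against 29.4% of all genes with the motif). Of the 10 without the motif, 2 had such a peak (20.0%, against 15.2%). Members were thus bound at the 5′ end more often than all genes with the motif in the promoter, and about as often without it, on small numbers in both cases. The peak could lie outside the promoter sequence, as for the regions of KDM6B at 1511 bp and TET2 at 871 bp. JMJD6 and ASPH, also bound within 2500 bp of the 5′ end, were among the members without promoter sequence.

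Normoxia and hypoxia could be compared where the same line had overlapping peaks in both lists, which was so at 4 member peaks. The exact binomial test used here, two-sided and with Benjamini-Hochberg adjustment over all shared peaks of the line, compares the tags of 2 merged libraries. It covers counting error only and says nothing of the spread between cultures. In A549 the KDM3A peak had 61.2 normalized tags in hypoxia (285 tags) and 13.6 in normoxia (56 tags), a log2 ratio of 2.17 (95% interval 1.75 to 2.61, exact test adjusted p = 2.29e-31). In H460 it had 50.5 (250 tags) and 5.07 (27 tags), a log2 ratio of 3.32 (2.74 to 3.95, exact test adjusted p = 1.15e-49). The KDM4C region at -4502 bp in HCT116 had 17.5 and 4.34, a log2 ratio of 2.02 (1.44 to 2.63, exact test adjusted p = 1.38e-14). These 3 peaks were higher in the hypoxia library. Measured against the median ratio of the peaks shared by the conditions, the log2 ratios fell to 0.91 for KDM3A in A549, 1.67 for KDM3A in H460 and 1.23 for KDM4C in HCT116, and each still passed (exact test adjusted p = 3.79e-05, 2.21e-10 and 1.84e-05). The background of shared peaks called higher in hypoxia was 73.3% of 176 in A549, 82.2% of 45 in H460 and 56.8% of 37 in HCT116, so a higher hypoxia value was the common case in these lines. RKO had no member peak in both lists (14.3% of its 98 shared peaks were higher in hypoxia).

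The peak at the 5′ end of ALKBH8, which modifies wobble uridines in transfer RNA, was the exception. In A549 it had 3.44 normalized tags in hypoxia (16 tags) and 3.64 in normoxia (15 tags), a log2 ratio of -0.082 with an interval of -1.19 to 1.04 (exact test adjusted p = 1). On the scale of the median ratio of shared peaks, however, the log2 ratio was -1.35 (exact test adjusted p = 0.0345), so the call for ALKBH8 depended on the scale.

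The other 7 normoxia peaks in member windows overlapped no hypoxia peak of the same line. In RKO they were at KDM4C (3.55 at 12894 bp), KDM7A (3.99 at 68875 bp), JMJD6 (3.55 at -5984 bp) and ASPH (3.99 at 132615 bp and 3.55 at 9562 bp). In H460 they were at JMJD6 (3.0 at 15278 bp, 517 bp from the start of MXRA7) and TYW5 (3.75 at 26974 bp). None of these 7 held the core motif, while each of the 4 peaks shared with hypoxia did. Over all normoxia peaks the core motif was present in 35.9% (HCT116), 17.7% (RKO), 42.4% (A549) and 15.1% (H460). With so few peaks, and low shares in RKO and H460 as a whole, this contrast was not read as a trait of the members. KDM3A was not called in HCT116 or RKO normoxia, where the weakest peaks listed had 2.89 and 2.44 normalized tags. No level can be given below a list's threshold, since only called peaks are listed.

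Levels between lines were compared over regions called in both hypoxia lists of a pair. The normalized tag counts of such regions differed as a whole, with a median log2 ratio of -0.94 for HCT116 to A549, -1.02 for HCT116 to H460, -1.02 for RKO to A549 and -1.11 for RKO to H460. The median was 0.12 for HCT116 to RKO and -0.19 for A549 to H460. Ratios below are given after subtracting that median, so they say how a region stood relative to other shared regions of the same pair. Of 52 tests at member regions over the 6 pairs, 19 passed an adjusted p of 0.05 by the exact binomial test, at 7 genes. Per pair the numbers were 3 of 10 for HCT116 and RKO (25.1% of all shared regions), 3 of 10 for HCT116 and A549 (39.5%), 3 of 9 for HCT116 and H460 (36.8%), 2 of 7 for RKO and A549 (32.6%), 4 of 10 for RKO and H460 (39.1%) and 4 of 6 for A549 and H460 (43.6%). With so few member regions in a pair, these counts were not read as differing from the shares of all shared regions.

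The KDM5B region at -3012 bp differed most on this scale. It was higher in RKO than in H460 by a log2 ratio of 2.09 (exact test adjusted p = 3.11e-14) and higher in A549 than in H460 by 1.73 (exact test adjusted p = 5.92e-10). With library totals as the scale these ratios were 0.98 and 1.54. The largest on that scale were -2.32 for ALKBH5 (RKO to A549) and -2.23 for TET1 (HCT116 to A549). ALKBH5 was higher in A549 than in H460 by 0.98 (exact test adjusted p = 1.07e-13), and its ratio was -1.30 for RKO to A549 (exact test adjusted p = 1.75e-15). It was also higher in HCT116 than in RKO, by 0.82 (exact test adjusted p = 2.23e-05). ALKBH5 thus stood highest in A549 and lowest in RKO relative to other shared regions.

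TET1 had a ratio of -1.29 for HCT116 to A549 (exact test adjusted p = 0.000486). TET2 was higher in H460 than in HCT116, with a ratio of -0.73 for HCT116 to H460 (exact test adjusted p = 0.00706), and than in A549, with -0.70 for A549 to H460 (exact test adjusted p = 0.00693). The ratio of -0.41 for RKO to H460 did not pass (exact test adjusted p = 0.189). The KDM4C region at 36820 bp was lowest in RKO, with a ratio of -0.94 for RKO to A549 (exact test adjusted p = 0.00011) and -0.67 for RKO to H460 (exact test adjusted p = 0.00872). KDM4B and KDM3A varied least among the regions called in every line. The calls were at most 0.50 for KDM4B and at most 0.54 for KDM3A on the log2 scale, the former for HCT116 over A549 and the latter for RKO over H460, and both turned negative when library totals set the scale (-0.45 and -0.57).

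Related enzymes on 2 lists served for comparison in the same windows. Over all protein-coding genes the shares with a hypoxia peak were 51.9% in at least 1 line, 20.0% (HCT116), 28.4% (RKO), 21.6% (A549) and 18.4% (H460). Of 24 other 2-oxoglutarate oxygenases, 16 had a hypoxia peak, 9 (HCT116), 10 (RKO), 12 (A549) and 10 (H460), with a median gene length of 28.5 kb. The same region was called in every line at 5 of them, the HIF prolyl hydroxylases EGLN1 and EGLN3, the collagen prolyl hydroxylases P4HA1 and P4HA2 and the collagen lysyl hydroxylase PLOD1. EGLN1 had 40.4, 28.0, 46.0 and 62.7 normalized tags in HCT116, RKO, A549 and H460, and P4HA1 had 37.3, 30.0, 65.5 and 56.4, levels of the same order as KDM3A. HR, a JmjC protein, was called in all 4 lists, with 28.1 in A549 as its strongest, and JMJD8 in 3, with at most 3.87.

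Of 26 enzymes that write the marks removed by the members or that demethylate with a flavin cofactor, 18 had a hypoxia peak, 8 (HCT116), 14 (RKO), 11 (A549) and 9 (H460), with a median length of 48.9 kb. Only KDM1A, the flavin-dependent H3K4 demethylase, had the same region in every line, with 8.71 (HCT116), 5.53 (RKO), 8.37 (A549) and 10.3 (H460). It was also called in RKO normoxia, at 3.33. The writers KMT2A, KMT2B, KMT2D, SETD1A, NSD2, EHMT2 and WTAP had peaks in 3 or more hypoxia lists, between 2.82 and 11.1 normalized tags. Peaks within 2500 bp of the 5′ end in at least 1 hypoxia list were found at 17 of 37 members, 14 of 24 other oxygenases and 11 of 26 writers and flavin demethylases. The share over all protein-coding genes was 22.2%. In the window and at the 5′ end, both comparison lists thus stood above all genes, as the members did. A share above that of all genes was not particular to the members. No test was made between these lists.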

How the data were processed

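HIF1A ChIP-seq was made from 4 cancer cell lines in normoxia or after 24 h of hypoxia. The authors aligned reads to GRCh37 with Bowtie2 2.2.9, filtered them with SAMtools (mapping quality over 10), marked duplicates with Picard and called peaks with HOMER 4.3. The submitters' processing notes list SAMtools 1.3.1 and Picard 1.129, while the study's methods give other versions of both, and also list FastQC 0.11.5 and bcl2fastq. Per the file headers, replicates were merged, each peak list was called against the input of its line, and the required fold ratio over input was 7 (HCT116), 6 (RKO), 13 (A549) or 14 (H460), beside a fold of 3 over the surrounding 10000 bp and a false discovery rate of 0.001. The deposited signal, the normalized tag count, is tags per 10 M tags. The deposited fold ratios over input and over the local region were used only for filters. The deposited ChIP and input tags of a peak, a score scaled to the smaller library, gave the input tag numbers, with 0.5 where the input had no tag.

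The descriptions of the RKO and A549 input samples each name the other line; titles were followed. Totals were 41.2 to 81.5 M tags, and the weakest listed peak held 11 tags, which sets the counting precision.

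Whole tags were computed by multiplying the normalized tag count by the library's total. Peaks were matched to GENCODE release 44 genes (lifted to GRCh37) with Python 3.11.15, pandas 2.3.3, numpy 2.4.6, SciPy 1.17.1 and pysam 0.24.0, and plotted with matplotlib 3.10.9. The binomial tests were checked on simulated tags. Groups came from sample titles. All 37 members are accounted for: every list's value is given for members with peaks in 2 or more hypoxia lists or in normoxia, the strongest peak for those in 1, and the name for the rest. Other genes are named where their start is nearest to a described peak, or where they are in a comparison list and have peaks in 3 or more hypoxia lists. Members, lists and tests were chosen with earlier results of these data known, so no test was run over a list. Alternatives were other windows, peak thresholds, overlaps, scales and a narrower motif window.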

Additional observations from a re-analysis of the deposited data

Results flagged for a closer look

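The change of KDM3A between conditions differed between the lung lines when library totals set the scale. The log2 ratio of hypoxia to normoxia at its 5′ peak was 3.32 in H460 and 2.17 in A549, a difference of 1.15 (exact conditional test of the 4 tag numbers, two-sided, p = 0.00135, 1 such comparison made). The normalized tag count in hypoxia was 50.5 in H460 and 61.2 in A549, and that in normoxia 5.07 and 13.6. The median log2 ratio of all peaks shared by the conditions was 1.64 in H460 and 1.27 in A549. After subtracting these medians the difference was 0.77, and this smaller difference was not tested. The test was chosen after the values were seen and compares merged libraries, without replicate error. The peaks called in both conditions were 45 in H460 and 176 in A549.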

How the results depend on the processing

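No paired analysis was possible because the replicates had been merged before the peaks were called, and for the same reason no replicate could be left out. Listing only called peaks leaves weaker signal unseen, and thresholds differed between lines. Of the values recomputed for the main results, 74 kept their direction or stayed within 1.5 times, 33 moved and 1 became stronger. The share of all protein-coding genes under the same setting follows each count of members in parentheses. With no flank the counts were 0 in HCT116 normoxia (0.796%), 1 in A549 normoxia (1.36%), 1 in H460 normoxia (2.74%), 10 in RKO hypoxia (18.1%) and 9 in H460 hypoxia (9.92%). Within 2500 bp of the 5′ end they were 0 in HCT116 (0.134%) and RKO normoxia (1.05%), 1 in H460 normoxia (0.338%), 12 in RKO hypoxia (8.75%) and 7 in A549 hypoxia (7.04%). Near any transcript's 5′ end they were 0 (0.289%), 0 (1.91%) and 1 (0.801%) in those normoxia lists and 9 in A549 hypoxia (9.79%). With a peak counted only for the nearest protein-coding start they were 2 in RKO normoxia (4.32%) and 1 in H460 normoxia (2.35%). With the nearest start of any gene, an alternative chosen after seeing the data, they were 0 (0.468%), 2 (3.0%) and 1 (1.58%) in HCT116, RKO and H460 normoxia, 11 in RKO hypoxia (13.9%) and 8 in H460 hypoxia (8.91%). A fold over input of 14 in every list left 0 in HCT116 (0.383%) and RKO normoxia (3.21%), 10 in RKO hypoxia (11.6%) and 3 members with a region in all 4 lines (0.632%). A local fold of 6 left 2 in RKO normoxia (3.83%), 1 in A549 normoxia (1.55%), 9 in HCT116 hypoxia (7.72%) and 13 in RKO hypoxia (11.2%). These alternatives keep fewer peaks by construction. In each hypoxia list, the share of members stayed above that of all genes under every window and threshold tried.

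With the scale set by the median ratio of shared peaks, ALKBH8 in A549 became lower in hypoxia (log2 ratio -1.35, exact test adjusted p = 0.0345). Per bp of peak width, the ratios of hypoxia to normoxia kept their calls, at 2.38 for KDM4C in HCT116, 2.2 and 3.01 for KDM3A in A549 and H460, and -0.0518 for ALKBH8. With library totals in place of the median ratio, member regions called between lines rose to 9 of 10 for HCT116 and A549, 9 of 9 for HCT116 and H460, 7 of 7 for RKO and A549 and 10 of 10 for RKO and H460. The log2 ratio reversed for KDM4B in HCT116 against A549 (-0.448) and against H460 (-0.609), for ALKBH5 in HCT116 against H460 (-0.589) and for KDM3A in RKO against H460 (-0.569). KDM3A no longer passed in HCT116 against RKO (-0.242) and in A549 against H460 (0.276). Between lines, tags per bp of width gave the same ratios by construction, since the width cancels against the median.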
